A study of Rattus norvegicus with 10 samples.

Results

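Gene expression in the liver of rats given sulfur mustard (SM) was compared with that of control rats, over all genes read by the arrays. The arrays were those whose treatment label was SM or control, 7 of the 10 arrays of the series: 4 SM and 3 control. Each array held liver RNA of 1 male Sprague Dawley rat, and all livers were taken 24 h after treatment. SM rats had a single subcutaneous dose of 3.5 mg/kg, 0.7 of the LD50, in propylene glycol, and control rats had the solvent. The other 3 rats had the same SM dose and then, 1 h later, 120 mg/kg of MSTF, a mixture of salvianolic acids and flavonoids. They entered the fit only to help estimate the spread, so each SE and adjusted p of that fit rests on them as well.

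Sulfur mustard is an alkylating agent that reacts with DNA, proteins and glutathione. Liver consists mainly of hepatocytes, which secrete plasma proteins, handle fats, sugars and bile acids, and detoxify foreign compounds with cytochrome P450 enzymes and conjugating enzymes such as glutathione S-transferases. Kupffer cells, natural killer cells, sinusoidal endothelial cells and stellate cells make up most of the rest. In bulk tissue, fewer cells of a type and less RNA per cell cannot be told apart.

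Among the brightest probes, the calls in SM were mostly falls. Apoa2, a main protein of high density lipoprotein, was the only probe called higher, at the 1.5-fold minimum, in the brightest of 4 equal bands of probes, while 60 were called lower there, among them Mup4, a major urinary protein made by hepatocytes. Over all brightness levels, 543 of 22850 tested probes were called changed (2.38%), 224 higher (0.980%) and 319 lower in SM (1.40%). Called means a limma adjusted p under 0.05, after Benjamini-Hochberg adjustment over all probes tested, and a change of at least 1.5-fold. All 543 had control and SM arrays that did not overlap, as did 4106 of the tested probes (18.0%). Before adjustment, 3749 probes had p under 0.05. The count fell whichever of the 7 arrays was left out. It was 59 without control replicate 2, 93 without SM replicate 1, 126 and 127 without control replicates 3 and 1, 165 without SM replicate 3, 239 without SM replicate 4 and 318 without SM replicate 2. These fits also hold fewer arrays, and the part of that in the lower counts was not tested. Normexp background correction, another way to subtract background, was run on the median signal and with an added offset of 50. With it 41 probes were called higher and 186 lower, and which of these changes moved the count was not tested. There 18.1% of the calls were higher in place of 41.3%. Leaving out single arrays moved this share the other way. It was 59.8%, 55.9% and 56.3% without control replicates 1, 2 and 3, 52.7% and 58.8% without SM replicates 1 and 2, and 45.5% and 44.4% without SM replicates 3 and 4, so that rises were the larger share in 5 of the 7 fits. With no filter on dim probes it was 51.0%. The p-values take the arrays as separate rats.

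By mean signal over the 7 arrays, the dimmest of 4 equal bands held 140 probes called higher and 115 lower, the second 65 and 80, the third 18 and 64, and the brightest 1 and 60. With no fold minimum the brightest band held 10 probes called higher and 74 lower, and by the methods' t-test before adjustment 13 and 101. In the fits with 1 array left out, 0 to 2 probes of the brightest band were called higher and 3 to 27 lower, the fewest without control replicate 2, and with the replicate number as a block 0 were called there. With the slide as a random block it held 0 higher and 4 lower, and the third band 4 and 3. The third band held 7 and 4, 4 and 3, and 5 and 4 without control replicates 1, 2 and 3. Without each SM array in turn its falls were more numerous. In the main fit the share called was 4.46% in the dimmest band and 1.07% in the brightest. The median log2 fold change was close to 0 in each band, between 0.025 and 0.054. Of the 224 probes called higher, 56 were well above background on no control array, and of the 319 called lower, 29 were so on no SM array.

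**Figure D1:**
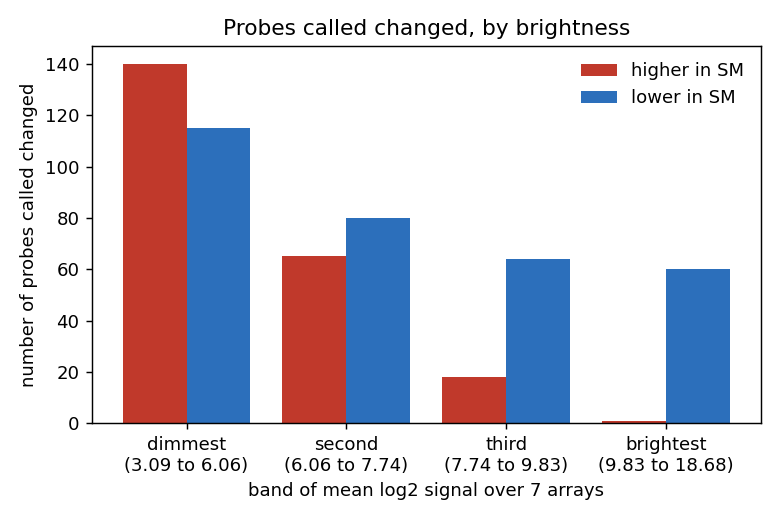
Bars give the number of probes called higher (red) or lower (blue) in SM in each of 4 equal bands of mean log2 signal over the 7 arrays, with the range of each band below it. Calls in both directions are seen in the dimmest band, 140 higher and 115 lower, and nearly all calls in the brightest band are lower, 60 against 1.

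Control and SM arrays lay on different slides: slide 1 held the control arrays with 1 SM + MSTF array, and slide 2 held the SM arrays alone. SM and slide 2 cannot be told apart. With the slide as a random block over all 10 arrays, 76 probes were called, 43 higher (56.6%) and 33 lower, and all 76 were among the 543. Probes well above background made up 57.1%, 51.9% and 58.6% of all probes on the control arrays and 60.9%, 61.4%, 57.3% and 58.9% on the SM arrays (two-sided exact permutation test, p = 0.114; with 35 assignments the smallest p is 0.0286). Spike-in RNA of the manufacturer, on the scale of the normalized values, differed between the group means by -0.008 to 0.13 on the log2 scale for the 8 spike-ins above a log2 signal of 3. Single arrays differed by more. For 1 of these spike-ins the control arrays were at 11.58, 11.07 and 10.67 and the SM arrays at 11.02, 11.25, 11.43 and 11.24. The part of these differences in the result was not tested.

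Of the 9144 named genes tested, taking the brightest probe of each, 129 were called (1.41%), 83 higher (0.908%) and 46 lower (0.503%). The brighter rises by size were found in 10 genes, all well above background on all 7 arrays. Myh11, the myosin heavy chain of smooth muscle, had log2 signals of 8.12, 7.89 and 7.75 on the control arrays and 9.34, 9.18, 9.59 and 9.08 on the SM arrays. Each SM array lay above every control array, with a log2 difference of 1.38 ± 0.14 (SE; adjusted p = 0.00323). A second Myh11 probe was at 0.01. Acsm3, a mitochondrial enzyme that activates medium-chain fatty acids, was at 8.57, 8.88 and 9.03 on the control arrays and 10.65, 10.09, 9.95 and 9.82 on the SM arrays. Its rise had a log2 difference of 1.30 ± 0.20 (SE; adjusted p = 0.0165). Fgfr3, a receptor for fibroblast growth factors, was at 8.72, 8.57 and 8.13 on the control arrays and 9.86, 9.59, 10.12 and 9.16 on the SM arrays. SM replicate 4 was the lowest of the SM arrays, and the groups did not overlap (1.21, adjusted p = 0.027). Of the 7 fits that each left out 1 array, with the highest adjusted p in parentheses, the call was kept for Myh11 in 7 (0.0233 without control replicate 2), Acsm3 in 5 (0.0731 without control replicate 2, lost also without control replicate 1) and Fgfr3 in 1 (0.0984 without control replicate 3).

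The other bright rises were in 7 genes. Slc13a5, the citrate carrier of the hepatocyte membrane, was at 7.42, 7.55 and 7.53 on the control arrays and 8.53, 8.58, 8.42 and 8.22 on the SM arrays, and the SM arrays lay close together above the controls. It had a log2 difference of 0.93 ± 0.18 (SE; adjusted p = 0.0315). The Golgi UDP-galactose carrier Slc35a2 rose by 0.73 (adjusted p = 0.046), and a second probe was at 0.03. Another sugar nucleotide carrier, Slc35b4, rose by 0.60 (adjusted p = 0.0362), while its second probe was at -0.28. Apoa2 was at 16.51, 16.84 and 16.70 on the control arrays and 17.45, 17.60, 17.14 and 17.32 on the SM arrays, higher on each SM array, with a log2 difference of 0.70 ± 0.13 (SE; adjusted p = 0.0263). Tmem104, a membrane protein, rose by 1.06 (adjusted p = 0.00323). Wwtr1, the transcriptional coactivator TAZ of the Hippo pathway, rose by 0.76 (adjusted p = 0.0348), with a second probe at 0.13. Snrpa, a protein of the splicing machinery, rose by 0.63 (adjusted p = 0.029). When each of the 7 arrays was left out in turn, the call was kept for Slc13a5 in 0 (0.11 without control replicate 1), Slc35a2 in 1 (0.162 without control replicate 3) and Slc35b4 in 0 (0.151 without control replicate 2), each with its highest adjusted p. It was kept for Apoa2 in 1 (0.0963 without control replicate 1), Tmem104 in 7 (0.0215 without control replicate 2), Wwtr1 in 1 (0.133 without control replicate 2) and Snrpa in 0 (0.102 without control replicate 1).

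The 12 bright falls by size began with Ndufc2 and Slc31a1. Ndufc2, a subunit of respiratory complex I, had log2 signals of 9.80, 9.71 and 9.79 on the control arrays and 7.69, 7.47, 7.70 and 7.80 on the SM arrays. No SM array came near a control array, and the probe had a log2 difference of -2.10 ± 0.36 (SE; adjusted p = 0.0229). Its second probe was at -0.17. The SD of the called probe was 0.05 over the control arrays and 0.14 over the SM arrays, and the SE also rests on the SM + MSTF arrays. Cox7c, a subunit of cytochrome c oxidase, was at 12.42, 12.26 and 12.09 on the control arrays and 11.13, 10.91, 11.27 and 11.01 on the SM arrays, with a log2 difference of -1.18 ± 0.22 (SE; adjusted p = 0.0288). Slc31a1, the copper importer of the cell membrane, was at 9.53, 9.40 and 9.28 on the control arrays and 7.30, 7.28, 7.53 and 7.66 on the SM arrays. Its fall had a log2 difference of -1.96 ± 0.31 (SE; adjusted p = 0.0192), with an SD of 0.12 over the control arrays and 0.18 over the SM arrays. Csad makes hypotaurine, the precursor of taurine, from cysteine sulfinate. Its log2 signals were 11.11, 10.88 and 11.01 on the control arrays and 9.82, 9.99, 10.23 and 10.09 on the SM arrays, lower on all 4 SM arrays, with a log2 difference of -0.97 ± 0.14 (SE; adjusted p = 0.0157). Of the 7 fits that each left out 1 array, with the highest adjusted p in parentheses, the call was kept for Ndufc2 in 0 (0.0889 without control replicate 2), Cox7c in 0 (0.108 without control replicate 1), Slc31a1 in 2 (0.0807 without control replicate 2) and Csad in 3 (0.0662 without control replicate 1).

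Mup4 was at 15.41, 15.34 and 15.37 on the control arrays and 13.79, 14.20, 14.47 and 13.92 on the SM arrays. All SM arrays were lower, with a log2 difference of -1.28 ± 0.22 (SE; adjusted p = 0.0233). Ugt2b, a glucuronosyltransferase, fell by 0.98 on the log2 scale (adjusted p = 0.0175). Eif1, which helps the ribosome select the start codon, was at 10.67, 10.25 and 10.38 on the control arrays and 9.68, 9.42, 9.57 and 9.47 on the SM arrays. It had a log2 difference of -0.90 ± 0.13 (SE; adjusted p = 0.0143), and a second probe was at -0.04. The remaining bright falls were in Popdc2 (-1.30), a cyclic AMP binding membrane protein, Shank1 (-0.98), a synaptic scaffold, the olfactory receptor Or8w1b (-0.90), Rasgrf1 (-0.88), an exchange factor for Ras, and Msl3l2 (-0.83). Their adjusted p-values ran from 0.00912 for Popdc2 to 0.05 for Msl3l2, which rounds up from just under the threshold. When each of the 7 arrays was left out in turn, the call was kept for Mup4 in 2 (0.0889 without control replicate 2), Ugt2b in 3 (0.0718 without control replicate 3), Eif1 in 7 (0.0496 without control replicate 3) and Popdc2 in 6 (0.0556 without control replicate 2), each with its highest adjusted p. It was kept for Shank1 in 4 (0.0731 without control replicate 2, lost also without control replicate 1 or control replicate 3), Or8w1b in 0 (0.102 without control replicate 2), Rasgrf1 in 4 (0.0729 without control replicate 2, lost also without control replicate 1 or SM replicate 1) and Msl3l2 in 1 (0.185 without control replicate 2).

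**Figure D2:**
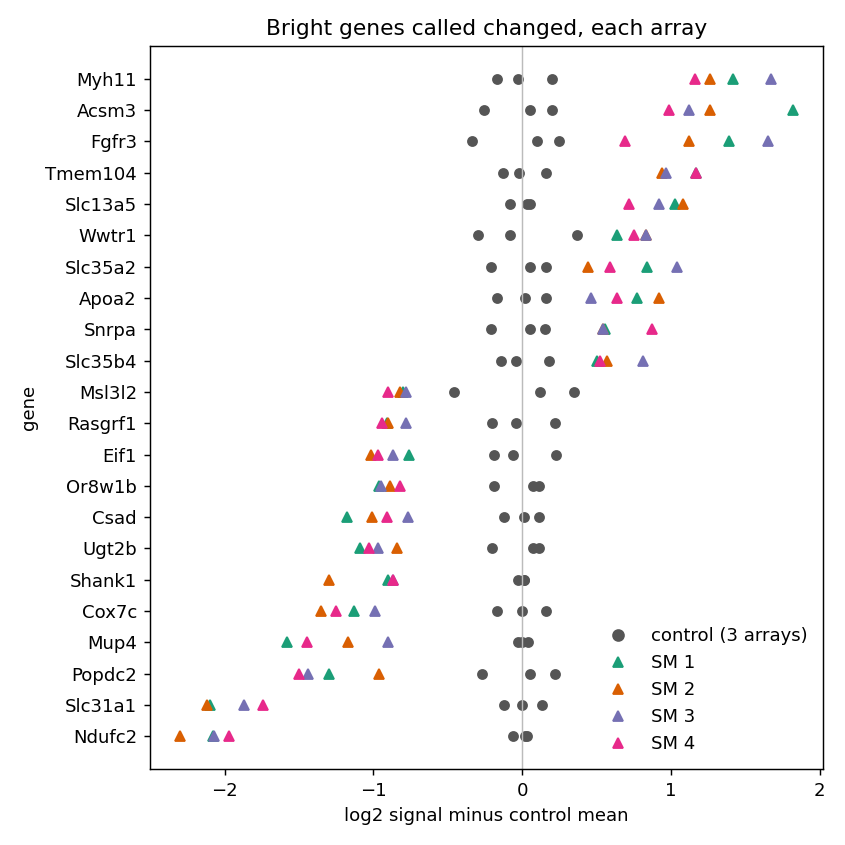
The 10 bright genes called higher and the 12 called lower by the largest amount are shown, with log2 signal minus the control mean for each control array (grey circles) and SM array (coloured triangles). In each gene the SM arrays lie apart from the control arrays, up to a fall of 2.10 in Ndufc2.

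For probes well above background on no array of a group only bounds are given. A bound divides the mean of the bright group by that of the dim group, with each dim array set to the weakest signal that counted as well above background there, or to the probe's own signal where higher. Or5p4, an olfactory receptor, was at 2.51, 3.01 and 2.34 on the control arrays and 7.34, 6.74, 6.01 and 6.06 on the SM arrays. It was well above background on no control array and was at least 4.46-fold higher (adjusted p = 0.00323). In the same way Anks6 was at least 2.04-fold higher (adjusted p = 0.00323), the keratin Krt6c at least 1.71-fold (adjusted p = 0.012) and Or4d10 at least 1.56-fold (adjusted p = 0.0202). Pde6h, a subunit of the cone phosphodiesterase, was well above background on no SM array and was at least 3.33-fold lower (adjusted p = 0.0336). Ka11, a keratin, was at least 2.12-fold lower (adjusted p = 0.014). For Atad2, a chromatin ATPase, the bound was at least 1.57-fold lower (adjusted p = 0.00959), while its other probes were at -0.19 and -0.11. Prp25l1 was well above background on 2 of 4 SM arrays and on each control array, so it passed the filter through the control arrays alone. Its fitted difference was -2.86 (adjusted p = 0.00323). This value is not exact, as SM replicates 1 and 4, at 3.82 and 3.42, were not well above background. Of the 7 fits that each left out 1 array, with the highest adjusted p in parentheses, the call was kept for Or5p4 in 7 (0.0211 without control replicate 1), Anks6 in 7 (0.0235 without control replicate 1), Krt6c in 6 (0.0664 without control replicate 2), Or4d10 in 2 (0.0847 without control replicate 2), Pde6h in 1 (0.133 without control replicate 2), Ka11 in 5 (0.0686 without control replicate 2, lost also without control replicate 1), Atad2 in 6 (0.0574 without control replicate 2) and Prp25l1 in 7 (0.0233 without control replicate 2).

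Probes of a gene often differed. Of 27 genes with several tested probes and at least 1 called, 18 had probes of 1 sign, 9 had probes of both signs, and 0 had all probes called.

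Interferon-stimulated genes, which cells switch on in response to interferons, had fitted values below control but differed among the rats of each group. Of 34 tested, 0 were called by limma and by the methods' t-test after adjustment, and all 34 had a fitted value below 0. Among the 34, 2 passed the filter on dim probes through the control arrays alone. The median log2 fold change was -0.60, beside 0.041 over all named genes tested. For members well above background on all 7 arrays it was -0.555. In the list 2 genes had an unadjusted p under 0.05, as had 1334 of all named genes tested (14.6%). For other lists that count is given as the number before adjustment, and their calls stand beside 1.41% called among all named genes. With at least 1 array left out, each of the 28 lists with a median under 0.1 in size moved by over 1.5 times and 13 of them had a median of the other sign, while 0 of the other 22 lists had a median of the other sign. Isg15, a ubiquitin-like protein, was at 13.98, 15.21 and 15.08 on the control arrays and 12.14, 10.57, 14.41 and 15.71 on the SM arrays. SM replicates 1 and 2 lay below the controls, and SM replicate 4 lay above them (-1.55, adjusted p = 0.595). Cxcl10, a chemokine that attracts T cells, was at 10.41, 11.45 and 10.93 on the control arrays and 8.54, 6.81, 9.90 and 11.19 on the SM arrays (-1.82, adjusted p = 0.371). Here SM replicate 4 lay within the control range. Over the list, the median difference from the control mean was -0.96, -1.72, -0.21 and 0.44 on SM replicates 1 to 4. On the control arrays it was -0.45, 0.24 and 0.20, so that SM replicate 3 lay within the control range. SM replicate 2 was below all controls in 33 of the 34 genes, and SM replicate 4 was above all controls in 25. Over all named genes those shares were 25.3% and 37.2%. Ifi27 was at 15.72, 15.75 and 15.60 on the control arrays and 14.69, 14.72, 15.26 and 15.97 on the SM arrays, and Irf3, the transcription factor that starts the interferon response, had a value of -0.0038. The list's median was -0.29 without SM replicate 2 and -0.92 without SM replicate 4.

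Promoters of 4 of these genes were searched for the letters that interferon-activated factors are known to bind. The genes are the 4 with the lowest fitted values among the 27 of 34 with a promoter in the RefSeq table (build GRCr8), chosen after the values were seen. Each is the 250 bases before the start, 5′ to 3′ on the strand of the gene: Cxcl10 (chr14:15988816-15989065, plus strand), Mx1 (chr11:50294607-50294856, minus strand), Oas1i (chr12:41284976-41285225, plus strand) and Ifit3 (chr1:241527076-241527325, plus strand). Capitals mark the interferon-stimulated response element, searched as GAAA, then 2 bases of any kind, then GAAA, or on the other strand TTTC, 2 bases of any kind and TTTC.
Cxcl10: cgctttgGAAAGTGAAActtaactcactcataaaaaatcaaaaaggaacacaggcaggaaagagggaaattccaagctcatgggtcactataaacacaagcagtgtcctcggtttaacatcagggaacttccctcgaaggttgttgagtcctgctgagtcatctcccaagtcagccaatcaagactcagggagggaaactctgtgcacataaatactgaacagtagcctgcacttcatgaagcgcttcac
Mx1: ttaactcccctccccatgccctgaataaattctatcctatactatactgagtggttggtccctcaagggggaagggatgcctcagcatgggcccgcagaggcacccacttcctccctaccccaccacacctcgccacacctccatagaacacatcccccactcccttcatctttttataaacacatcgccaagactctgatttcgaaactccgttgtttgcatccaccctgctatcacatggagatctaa
Oas1i: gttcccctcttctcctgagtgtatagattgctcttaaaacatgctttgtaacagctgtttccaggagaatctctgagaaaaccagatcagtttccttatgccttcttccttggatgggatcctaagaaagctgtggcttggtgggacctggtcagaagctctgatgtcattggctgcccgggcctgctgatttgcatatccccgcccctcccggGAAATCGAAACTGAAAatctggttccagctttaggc
Ifit3: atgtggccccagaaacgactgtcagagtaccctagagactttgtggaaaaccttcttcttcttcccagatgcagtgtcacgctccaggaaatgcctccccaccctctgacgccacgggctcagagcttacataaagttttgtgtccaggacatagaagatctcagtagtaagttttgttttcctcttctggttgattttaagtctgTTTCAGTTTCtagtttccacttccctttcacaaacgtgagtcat
The letters occur in 17 of the 27 promoters (63.0%) and in 3.41% of all 33469 promoters of the same length. They are not in the Mx1 window, and the capitals of Oas1i hold overlapping matches.

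MHC class I genes, which present peptides to cytotoxic T cells, had a similar order of the rats. Of 16 tested 0 were called (0 before adjustment), 15 lay below 0 and the median was -0.18. The median difference from control was -0.32, -0.54, -0.04 and 0.31 on SM replicates 1 to 4. B2m, the light chain of class I molecules, was at -0.07 (adjusted p = 0.831), and RT1-CE12 was at -0.04. The class I median was -0.032 without SM replicate 2, -0.41 without SM replicate 4, -0.12 without SM replicate 1, and -0.093 and -0.12 without control replicates 2 and 3. MHC class II genes, found on antigen-presenting cells, had 0 of 9 called (4 before adjustment) and a median of -0.52, and here all 4 SM arrays were low, at -0.44, -0.75, -0.36 and -0.43. Cd74, the invariant chain of class II molecules, was at 12.93, 12.59 and 12.56 on the control arrays and 11.90, 11.71, 12.28 and 12.06 on the SM arrays, without overlap (-0.70, adjusted p = 0.0808). In 5 of the 9 genes every SM array lay below every control array, as in 6.28% of all named genes tested. Ctsl was at -0.18 and Ifi30 at -0.09. The class II median was -0.34 without control replicate 1 and -0.34 with no filter on dim probes. Too dim to pass the filter were RT1-Ba, RT1-DOa, RT1-DOb, Ciita, Cd80 and Cd86.

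Natural killer cell markers lay below control in fitted value. Of 16 tested, 2 were called lower, 7 had an unadjusted p under 0.05, and all 16 lay below 0, with a median of -0.53. Among the 16, 2 passed the filter on dim probes through the control arrays alone, and the median of members well above background on all 7 arrays was -0.50. Klrd1, the CD94 chain of natural killer receptors, was at 5.34, 5.53 and 5.45 on the control arrays and 4.45, 3.63, 4.29 and 4.52 on the SM arrays. It was well above background on 2 of 4 SM arrays, so it was tested only because of its control level, and the groups did not overlap (-1.22, adjusted p = 0.0276). Klrc2, its NKG2C partner, was at 5.86, 5.70 and 5.56 on the control arrays and 4.73, 4.61, 4.92 and 4.90 on the SM arrays (-0.92, adjusted p = 0.0251). Of the 7 fits that each left out 1 array, with the highest adjusted p in parentheses, the call was kept for Klrd1 in 2 (0.108 without control replicate 2) and Klrc2 in 0 (0.0942 without control replicate 2). The brightest member was Fcgr3a. The summed linear signal of the list was 4090, 4285 and 4311 on the control arrays and 2520, 2051, 3354 and 5320 on the SM arrays. SM replicate 4 was thus above the controls in the sum, and its median difference from control was 0.21. The list's median was -0.85 without SM replicate 4 and -0.28 under normexp. The markers Klrb1b, Klrb1c, Ncr1, Ncr3, Tbx21 and Cd226 did not pass that filter, which asked for every array of a group. The part of these cells in the values of other lists was not tested.

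For T cell markers, 0 of 10 were called (2 before adjustment) and the median was 0.074. It was -0.023 without SM replicate 1, -0.011 without control replicate 2, 0.001 without SM replicate 4, 0.16 without SM replicate 2, 0.14 without control replicate 3 and 0.026 under normexp. Among the 10, 2 passed the filter through the SM arrays alone, and the median of members well above background on all 7 arrays was 0.013. Cd3d, a chain of the T cell receptor complex, was at -0.11 and Cd6 at -0.04, and the summed signal was 1155, 1088 and 1288 on the control arrays and 1441, 777, 1155 and 1398 on the SM arrays, led by Cd3d. Too dim for the filter were Cd3e, Cd247, Cd4, Lef1, Cd2, Cd5, Cd28, Icos, Trat1 and Foxp3. B cell and plasma cell markers had 0 of 8 called (1 before adjustment) and a median of -0.43. The B cell gene Fcrla was at 7.02, 7.26 and 7.87 on the control arrays and 5.98, 5.72, 6.04 and 9.06 on the SM arrays, so that SM replicate 4 stood far above the other SM arrays, and Cd22 was at 0.22. The B cell median was -0.12 without control replicate 2, -0.26 without SM replicate 2 and -0.20 under normexp. Their summed signal was 645, 811 and 753 on the control arrays and 542, 445, 510 and 1075 on the SM arrays. Cd22 was the brightest member by mean log2 signal. Fcrla lay above Cd22 on control replicates 2 and 3 and on SM replicate 4 (9.06 against 7.62). Blk, Cr2 and Tnfrsf17 did not pass the filter.

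Kupffer cell and macrophage markers had 0 of 24 called (0 before adjustment), 19 below 0 and a median of -0.12. Clec4f, a lectin of Kupffer cells, was at -0.37 (adjusted p = 0.509) and the complement gene C1qb at -0.20 (adjusted p = 0.672). Their summed signal was 177000, 179700 and 221100 on the control arrays and 158800, 130500, 184400 and 226900 on the SM arrays, led by Clec4f, with SM replicate 2 the lowest array and SM replicate 4 the highest. The median was -0.008 without SM replicate 2, -0.24 without SM replicate 4 and -0.078 without control replicate 3. Pan-leukocyte and adhesion genes had 0 of 16 called (2 before adjustment) and a median of -0.25, with Ptpn6 at -0.09 and Arhgdib at -0.07. This median was -0.083 without SM replicate 2, -0.42 without SM replicate 4, -0.16 without control replicate 2 and -0.12 under normexp. Their sum was 13370, 16340 and 15700 on the control arrays and 12600, 11390, 14650 and 18030 on the SM arrays, led by Ptpn6. Too dim for the filter were Sele, Selp and Itgal.

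In granulocyte and mast cell markers 1 of 9 was called (1 before adjustment). Prg2, the major basic protein of eosinophils, was between 5.85 and 6.30 on the control arrays and at 6.97, 7.19, 6.91 and 7.10 on the SM arrays. Every SM array was higher, and Prg2 rose by 0.99 (adjusted p = 0.0247). Of the 7 fits that each left out 1 array, 0 kept the call (highest adjusted p = 0.0916 without control replicate 3). The mast cell tryptase Tpsab1 was at -0.20, and the median was -0.058. It was 0.17 without SM replicate 1, 0.025 without SM replicate 3 and 0.040 without control replicate 3, and 0.093 for genes well above background on all 7 arrays. Their sum was 2436, 2353 and 2151 on the control arrays and 3160, 2270, 2232 and 2420 on the SM arrays, led by Tpsab1. Of the defining markers, Elane, Ctsg, Csf3r, Cxcr1, Cxcr2, Fpr1, Mmp8, Mmp9, Camp, Ngp, Prg3, Epx, Ccr3, Kit, Fcer1a and Ms4a2 did not pass the filter.

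Erythroid markers had the highest median of the lists, 0.68, with 1 of 14 called (5 before adjustment) and 13 above 0. Among the 14, 4 passed the filter through the SM arrays alone, and the median of members well above background on all 7 arrays was 0.68. The gamma globin Hbg1, a dim probe, was at 4.40, 4.43 and 4.33 on the control arrays and 5.01, 4.98, 5.06 and 4.84 on the SM arrays, well above background on 2 of 3 control arrays and so among those 4, and rose by 0.59 (adjusted p = 0.0345). None of the 7 fits with 1 array left out called it (highest adjusted p = 0.12 without control replicate 3). Hba-a3, an alpha globin, was at 16.44, 17.77 and 17.36 on the control arrays and 16.82, 18.26, 18.26 and 17.23 on the SM arrays, and the groups overlapped (0.45, adjusted p = 0.686). SM replicates 2 and 3 were high and SM replicate 1 was not: the median differences from control were 0.00, 1.06, 1.11 and 0.46. Under normexp the list's median was 0.29. The controls also varied, with -0.70, 0.66 and 0.05. The summed signal was 167200, 389900 and 290500 on the control arrays and 183800, 495000, 525200 and 271600 on the SM arrays, led by Hba-a3. The markers Hbe1, Hbz, Sptb, Rhag and Gata1 did not pass the filter.

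Stellate cell, smooth muscle and matrix genes had 1 of 33 called (8 before adjustment), Myh11. The median was -0.20, and 21 lay below 0. Col1a2, a chain of type I collagen, was at 13.17, 13.27 and 13.24 on the control arrays and 12.40, 12.62, 12.52 and 12.45 on the SM arrays, lower on each SM array but not called (-0.73, adjusted p = 0.0696). Fn1, fibronectin, was at -0.20. The summed signal was 173900, 178500 and 165600 on the control arrays and 141000, 148500, 141600 and 150800 on the SM arrays, led by Fn1, lower on every SM array. Lum, Postn, Cnn1, Thy1 and Tgfb2 did not pass the filter. After adjustment the methods' t-test called Col1a1, Col1a2 and Myh11. Endothelial markers had 0 of 21 called (2 before adjustment) and a median of -0.041, with the VEGF receptor Kdr at 0.0006 and Dnase1l3 at -0.05. Their sum was 41580, 41870 and 41260 on the control arrays and 43260, 39290, 39720 and 42430 on the SM arrays, led by Kdr, and Cldn5 and Wnt9b did not pass the filter. Cholangiocyte markers had 0 of 7 called (0 before adjustment) and a median of 0.18, with Slc4a2 at -0.04 and Epcam at 0.10. This median was 0.10 without SM replicate 1 and 0.035 without control replicate 1. Their sum was 1613, 1826 and 1730 on the control arrays and 1975, 1951, 1580 and 1958 on the SM arrays, led by Slc4a2, and Spp1, Cftr and Sctr did not pass the filter.

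Hepatocyte genes were bright on all arrays. Of 21 tested, 0 were called (1 before adjustment), with a median of 0.057. Ambp, a plasma protein precursor, was at 0.07 and Ttr, transthyretin, at -0.04. Their summed signal was 2143000, 2106000 and 2246000 on the control arrays and 2152000, 2192000, 2101000 and 2152000 on the SM arrays, led by Ambp.

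**Figure D3:**
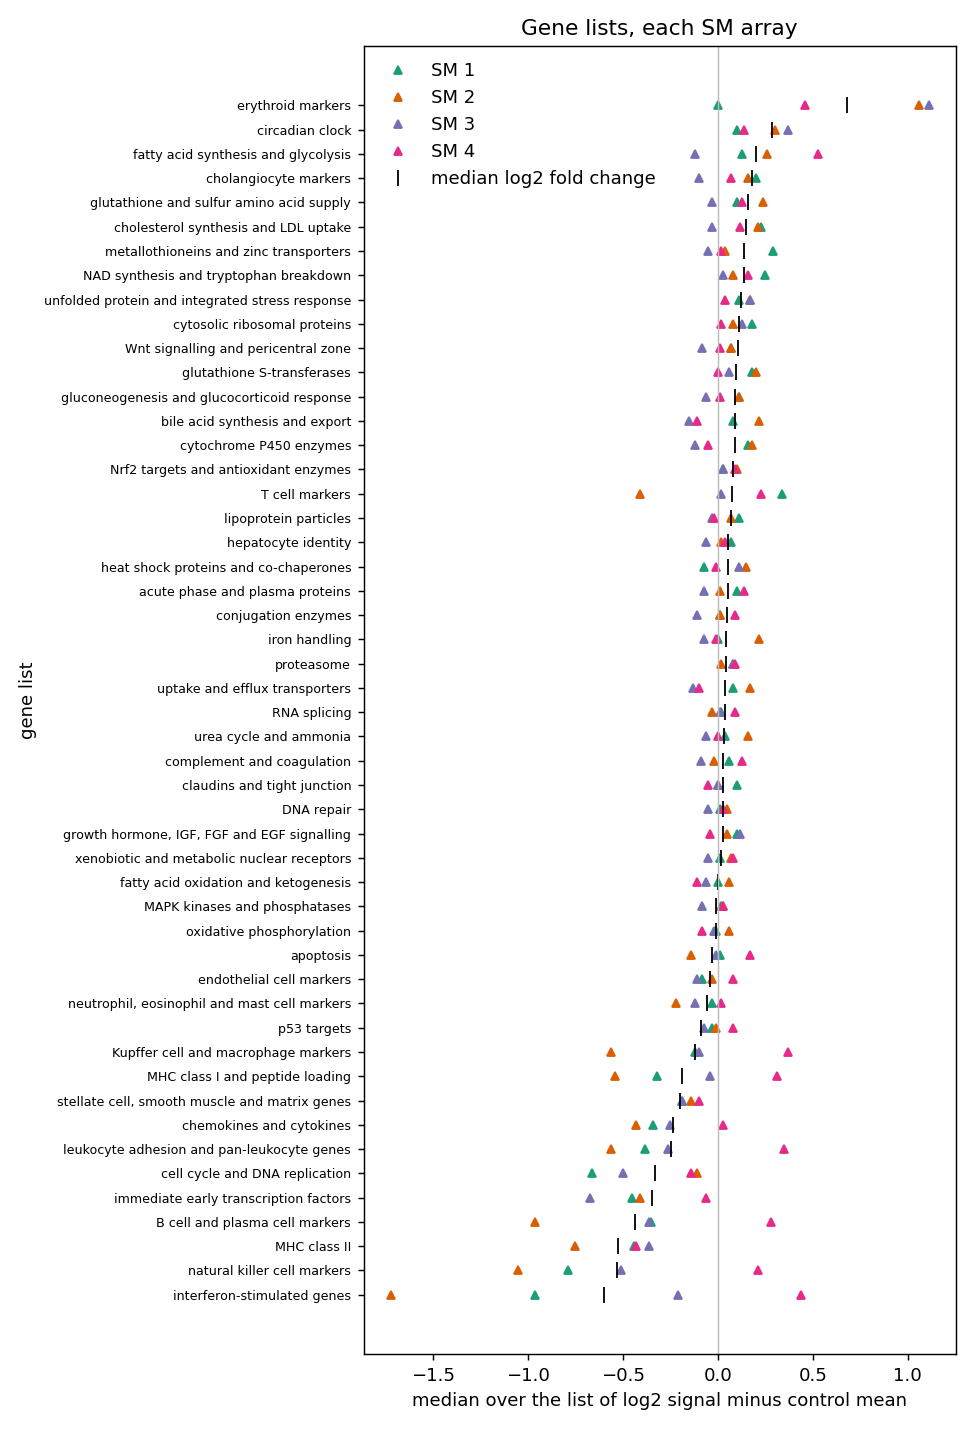
Each line is a gene list. Triangles give, for each SM array, the median over the list of log2 signal minus the control mean, and black bars the median log2 fold change. SM replicates 2 and 4 lie at opposite ends for interferon-stimulated genes, at -1.72 and 0.44.

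Cell cycle genes were lower in fitted value, unevenly among the rats. Of 41 tested, 1 was called (15 before adjustment), 32 lay below 0 and the median was -0.33. Ccnb2, a mitotic cyclin, was at 6.85, 7.64 and 7.36 on the control arrays and 5.03, 6.27, 4.82 and 6.42 on the SM arrays, with every SM array below every control array, but it was not called (-1.64, adjusted p = 0.085). Ccna2, the cyclin of S phase and G2, was at 7.27, 8.05 and 7.87 on the control arrays and 5.73, 6.84, 5.83 and 6.91 on the SM arrays (-1.40, adjusted p = 0.0895). SM replicates 1 and 3 were lower than SM replicates 2 and 4 in both. In 9 of the 41 genes every SM array lay below every control array (6.28% of all named genes). The list's median differences from the control mean were -0.66, -0.11, -0.50 and -0.14 on SM replicates 1 to 4. On the control arrays they were -0.28, 0.22 and 0.10, so that SM replicates 2 and 4 lay within the control range. The called gene was Cdkn2a, which encodes inhibitors of cyclin D kinases and of MDM2. It was at 5.20, 4.79 and 4.93 on the control arrays and 5.78, 5.68, 5.61 and 5.81 on the SM arrays, well above background on 2 of 3 control arrays, so that it passed the filter through the SM arrays alone, and rose by 0.75 (adjusted p = 0.0157). Leaving out control replicate 2 or 3 or SM replicate 1 ended that call (highest adjusted p = 0.0756 without control replicate 2). The list's median was -0.17 without SM replicate 1, -0.21 without control replicate 2 and -0.19 under normexp.

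Promoters of the 2 cell cycle genes with the lowest fitted values among the 29 of 41 in the RefSeq table are given in the same way: Ccnb2 (chr8:79981659-79981908, minus strand) and Ccnb1 (chr2:33655226-33655475, minus strand). Capitals mark TTTGAA or its reverse complement TTCAAA, the letters searched here for the cell cycle genes homology region. Other forms of this element were not searched.
Ccnb2: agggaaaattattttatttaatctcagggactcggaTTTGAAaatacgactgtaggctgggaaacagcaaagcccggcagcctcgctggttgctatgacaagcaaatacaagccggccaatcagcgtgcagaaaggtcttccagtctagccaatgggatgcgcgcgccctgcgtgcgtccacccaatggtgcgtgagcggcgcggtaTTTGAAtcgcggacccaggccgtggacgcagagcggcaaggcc
Ccnb1: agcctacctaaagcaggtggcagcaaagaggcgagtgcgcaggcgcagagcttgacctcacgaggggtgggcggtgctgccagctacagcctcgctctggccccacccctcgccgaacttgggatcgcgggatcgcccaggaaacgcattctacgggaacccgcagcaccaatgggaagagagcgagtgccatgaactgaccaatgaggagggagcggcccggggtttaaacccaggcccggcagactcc
These letters occur in 7 of the 29 promoters (24.1%) and in 16.2% of all promoters, and are not in the Ccnb1 window. Among the 27 interferon promoters they occur in 2 (7.41%), and the interferon element occurs in 0 of the 29.

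**Figure D4:**
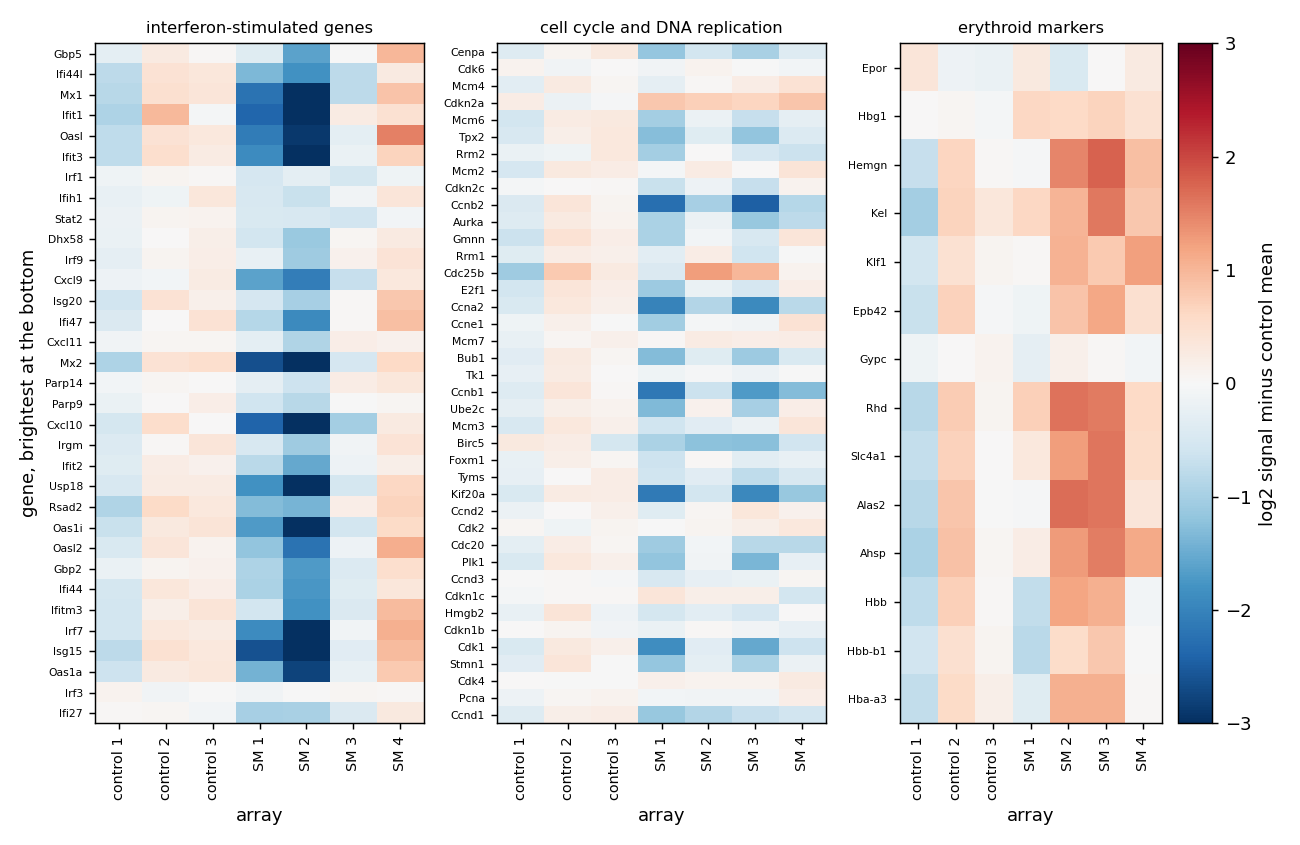
Colours give log2 signal minus the control mean for each gene shown (lines) on each array (columns), blue for lower and red for higher, with the scale ending at 3 in either direction so that larger differences share the end colour. Interferon-stimulated genes are lowest on SM replicates 1 and 2, and erythroid markers are highest on SM replicates 2 and 3.

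DNA repair genes had 0 of 35 called (3 before adjustment), with a median of 0.028. Mgmt, which removes alkyl groups from guanine, was at 12.66, 12.50 and 12.64 on the control arrays and 12.59, 12.42, 12.52 and 12.16 on the SM arrays (-0.18, adjusted p = 0.501), and the base excision enzyme Apex1 was at 0.04. Atm, the kinase that signals DNA breaks, was at 4.82, 5.11 and 4.99 on the control arrays and 4.50, 4.37, 4.42 and 4.30 on the SM arrays. Each SM array was lower, and the adjusted p passed the threshold but the change was under the fold minimum, so it was not called (-0.58, adjusted p = 0.0403). Targets of p53 had 0 of 22 called (2 before adjustment) and a median of -0.088. The p53 median was -0.001 without SM replicate 1, -0.034 without SM replicate 3, -0.043 without control replicate 2 and -0.025 without control replicate 3. Cdkn1a, the p21 inhibitor of the cell cycle, was at 10.36, 10.35 and 11.21 on the control arrays and 9.76, 10.31, 11.09 and 10.78 on the SM arrays, with overlapping groups (-0.15, adjusted p = 0.867). Its value was 0.13 without control replicate 3 and 0.09 without SM replicate 1. Gadd45g was at -0.10 and the BH3 protein gene Bbc3 at 0.18. Apoptosis genes had 0 of 29 called (2 before adjustment) and a median of -0.028, with cytochrome c, Cycs, at 0.09 and Aifm1 at -0.05.

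Signalling genes held a few calls. In the growth factor list 3 of 28 were called (4 before adjustment), 2 higher and 1 lower, beside 1.41% of all named genes. Erbb2, a receptor kinase of the EGF family, was at 9.90, 9.44 and 9.52 on the control arrays and 9.23, 8.93, 8.58 and 8.77 on the SM arrays and fell by 0.74 on the log2 scale (adjusted p = 0.0471). Fgf22, well above background on no control array, passed the filter through the SM arrays alone and was at least 1.38-fold higher (adjusted p = 0.0247), and the other call was Fgfr3. The median was 0.027. Of MAPK kinases and phosphatases 1 of 29 was called (5 before adjustment): Dusp8, a phosphatase of stress-activated kinases, was at 12.42, 12.41 and 11.82 on the control arrays and 11.36, 11.40, 11.51 and 11.32 on the SM arrays and fell by 0.82 (adjusted p = 0.0301). Map2k2 was at 0.12, and the median was -0.008. Immediate early transcription factors had a median of -0.34, with 17 of 20 below 0 and 1 called (4 before adjustment). The called gene, Egr3, was called higher, against the direction of the median. It was at 3.22, 3.54 and 3.24 on the control arrays and 4.22, 4.13, 4.62 and 4.50 on the SM arrays and well above background on no control array, and its bound was under 1, so no fold is given (adjusted p = 0.0202). Jund was at 0.18. When each of the 7 arrays was left out in turn, the call was kept for Erbb2 in 0 (0.146 without control replicate 1), Fgf22 in 2 (0.0916 without control replicate 3), Dusp8 in 1 (0.121 without control replicate 2) and Egr3 in 1 (0.0813 without control replicate 3), each with its highest adjusted p.

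Clock genes had 1 of 15 called (4 before adjustment) and a median of 0.29. Nr1d1, the repressor REV-ERB alpha, was at 7.88, 7.91 and 7.16 on the control arrays and 6.89, 6.72, 6.54 and 6.93 on the SM arrays and fell by 0.88 on the log2 scale (adjusted p = 0.0471). Its relative Nr1d2 was at -0.95 (adjusted p = 0.102) and Cry1, which Nr1d1 is known to repress, at 0.88 (adjusted p = 0.129), neither called. Nfil3 was at 0.07. In 6 of the 15 genes every SM array lay above every control array, as in 11.2% of all named genes tested. The call of Nr1d1 was kept in 1 of 7 fits with 1 array left out (highest adjusted p = 0.185 without control replicate 2). The list's median was 0.15 without SM replicate 2, 0.19 without SM replicate 3 and 0.13 under normexp.

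Cytochrome P450 enzymes had 0 of 33 called (1 before adjustment) and a median of 0.09, with Cyp2b3 at -0.05 and Cyp2c13 at 0.0060. Conjugation enzymes had 0 of 23 called (3 before adjustment) and a median of 0.05, with Sult1c3 at -0.21, but Ephx2, a soluble epoxide hydrolase, was at 8.15, 7.81 and 7.95 on the control arrays and 5.64, 6.29, 5.49 and 5.53 on the SM arrays. Every SM array was lower, by the most of the list (-2.23, adjusted p = 0.0546), and the methods' t-test called it after adjustment where limma did not. Ugt2b, called lower, is not on the list. Glutathione S-transferases had 0 of 18 called (2 before adjustment) and a median of 0.094, with Gsta2 at 0.23 and Gsta1 at 0.08. Glutathione and sulfur amino acid genes had 1 of 22 called (3 before adjustment), Csad, a median of 0.16, and Bhmt, which makes methionine from homocysteine, at -0.05. The median of these genes was 0.091 without SM replicate 2. Targets of Nrf2, a transcription factor of the oxidant response, and antioxidant enzymes had 0 of 36 called (5 before adjustment) and a median of 0.082, with Ftl1, a ferritin chain, at 0.28 and Sod1, superoxide dismutase, at 0.04. Metallothionein and zinc transporter genes had 0 of 7 called (0 before adjustment) and a median of 0.14. Mt1, a metal-binding protein, was at 15.70, 16.53 and 14.90 on the control arrays and 17.56, 15.43, 16.00 and 16.20 on the SM arrays, so its spread among rats was wide (0.59, adjusted p = 0.607), and Slc39a4 was at -0.24. The median was 0.045 without SM replicate 1 and 0.074 without control replicate 1. Uptake and efflux transporters had 0 of 11 called (0 before adjustment) and a median of 0.039, with Slco1b2 at -0.11. Nuclear receptors had 0 of 15 called (1 before adjustment) and a median of 0.016, with Nr1h3 at 0.08 and Rxrg at 0.07.

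Fatty acid synthesis and glycolysis genes had 0 of 24 called (3 before adjustment), but 21 lay above 0, with a median of 0.20. Acly, which makes cytosolic acetyl-CoA, was at 15.44, 15.14 and 14.95 on the control arrays and 15.76, 14.97, 15.11 and 16.09 on the SM arrays (0.31, adjusted p = 0.825), and Scd was at 0.17. The median was 0.12 without control replicate 3, 0.32 without SM replicate 3 and 0.13 without SM replicate 4. Cholesterol genes had 0 of 27 called (3 before adjustment) and a median of 0.15. Insig1, a sterol-responsive regulator, was at 14.53, 15.57 and 14.86 on the control arrays and 15.92, 15.22, 15.67 and 16.08 on the SM arrays (0.74, adjusted p = 0.226), and its other 3 probes were at 0.79, 0.77 and 0.84. Ebp was at 0.09. The cholesterol median was 0.25 without control replicate 2 and 0.065 without control replicate 3. Fatty acid oxidation genes had 0 of 34 called (3 before adjustment) and a median of 0, with Fabp1 at -0.06 and Acsl1 at -0.15. Bdh1, a ketone body enzyme, passed the p threshold and not the fold minimum (-0.55, adjusted p = 0.0202), and Acsm3, called higher, is not on these lists. Lipoprotein genes had 1 of 22 called (2 before adjustment), Apoa2, and a median of 0.068, with Apoc3 at -0.05. Bile acid genes had 0 of 17 called (4 before adjustment) and a median of 0.091, with Slc27a5, a bile acid ligase, at 0.10 and Slc10a1, the bile acid importer, at -0.35.

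In sugar and nitrogen metabolism, gluconeogenesis genes had 0 of 30 called (2 before adjustment) and a median of 0.092, with Fbp1 at 0.02 and Pc at -0.01. Urea cycle genes had 0 of 12 called (2 before adjustment) and a median of 0.034, with Ass1 at 0.17. NAD and tryptophan genes had 0 of 18 called (5 before adjustment) and a median of 0.14, with Kynu at -0.23 and Nadk2 at -0.17. Iron genes had 0 of 18 called (0 before adjustment) and a median of 0.044, with Alas1 at 0.28 and Urod at -0.12. Among secreted proteins, acute phase and plasma protein genes had 0 of 32 called (0 before adjustment) and a median of 0.052, with Tf, transferrin, at -0.08 and Hp, haptoglobin, at 0.14. Complement and coagulation genes had 0 of 37 called (1 before adjustment) and a median of 0.028, with C3 at 0.11 and F2 at 0.04. Chemokines and cytokines had 0 of 26 called (7 before adjustment) and a median of -0.24. Cxcl12 was at 14.54, 14.44 and 14.39 on the control arrays and 14.10, 13.98, 14.20 and 14.17 on the SM arrays, lower on each SM array but not called (-0.34, adjusted p = 0.177), and Il33 was at 0.49. The chemokine median was -0.12 without control replicate 3, -0.13 without SM replicate 2 and -0.14 under normexp.

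Heat shock proteins had 0 of 37 called (7 before adjustment) and a median of 0.054, with Hspe1 at 0.15 and Hspd1 at 0.03. These counts take the brightest probe, and in 2 members another probe was called lower: Hspa8, a constitutive chaperone, at -1.13 beside -0.46 for its brightest probe, and Cct6a, a chaperonin subunit, at -1.10 beside 0.03. Unfolded protein response genes had 0 of 26 called (4 before adjustment) and a median of 0.12, with P4hb at -0.10 and Hspa5 at 0.12. Proteasome genes had 0 of 30 called (6 before adjustment) and a median of 0.042, with Psmd1 at 0.03 and Psma4 at -0.02. Cytosolic ribosomal proteins had 0 of 42 called (4 before adjustment) and a median of 0.11, with Rplp1 at 0.07 and Rps23 at 0.13. Under 75th percentile scaling 43 of the 50 list medians were higher and 6 lower, with shifts from -0.008 to 0.104 and a median shift of 0.028. The unfolded protein and ribosomal medians were 0.20 and 0.19 there, those of glutathione S-transferases and gluconeogenesis 0.20 and 0.19, and those of the proteasome and growth factor lists 0.13 and 0.11. The sign turned in 2 lists, oxidative phosphorylation (0.082) and MAPK kinases and phosphatases (0.001). Oxidative phosphorylation genes had 0 of 43 called (5 before adjustment) and a median of -0.009, with Cox6a1 at 0.11 and Ndufb8 at -0.03, and the list does not hold Ndufc2 and Cox7c, both called lower. Splicing genes had 1 of 42 called (4 before adjustment), Snrpa, a median of 0.038, and Ddx5 at -0.17.

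Junction genes had 1 of 18 called (4 before adjustment) and a median of 0.028. That median was 0.106 with no filter on dim probes and -0.015 for genes well above background on all 7 arrays. Among the 18, 1 passed the filter through the SM arrays alone. Cldn18, a claudin of tight junctions, was at 7.19, 7.30 and 7.10 on the control arrays and 8.18, 8.44, 8.08 and 7.85 on the SM arrays and rose by 0.94 (adjusted p = 0.0265), with no overlap. Its call was kept in 1 of 7 fits with 1 array left out (highest adjusted p = 0.0984 without control replicate 3). The adhesion gene Cdh1 was at -0.14. Genes of Wnt signalling and of the hepatocytes around the central vein had 0 of 18 called (4 before adjustment) and a median of 0.11, with Rgn at -0.16 and Lhpp at -0.30. The Wnt median was 0.031 without SM replicate 1, 0.069 without control replicate 1, 0.060 under normexp and 0.003 with no filter on dim probes. Of the control genes, Actb was at 15.52, 15.43 and 14.96 on the control arrays and 14.96, 15.61, 15.29 and 15.53 on the SM arrays (0.04) and Gapdh at 0.17, and neither was called.

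Of the 41 called genes named here, 9 were called with the slide as a random block: Myh11, Tmem104, Popdc2, Csad, Or5p4, Anks6, Krt6c, Prp25l1 and Atad2. Of these, Or5p4, Anks6 and Krt6c passed the filter on dim probes through the SM arrays alone. Prp25l1 and Atad2 passed it through the control arrays alone. As the SM arrays lay on a slide of their own, the block cannot tell SM from the slide. Leaving out 1 array at a time, 50 of the 543 probes, 17 of them named, were called in all 7 fits, among them Myh11, Tmem104, Eif1, Or5p4, Anks6 and Prp25l1.

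**Figure D5:**
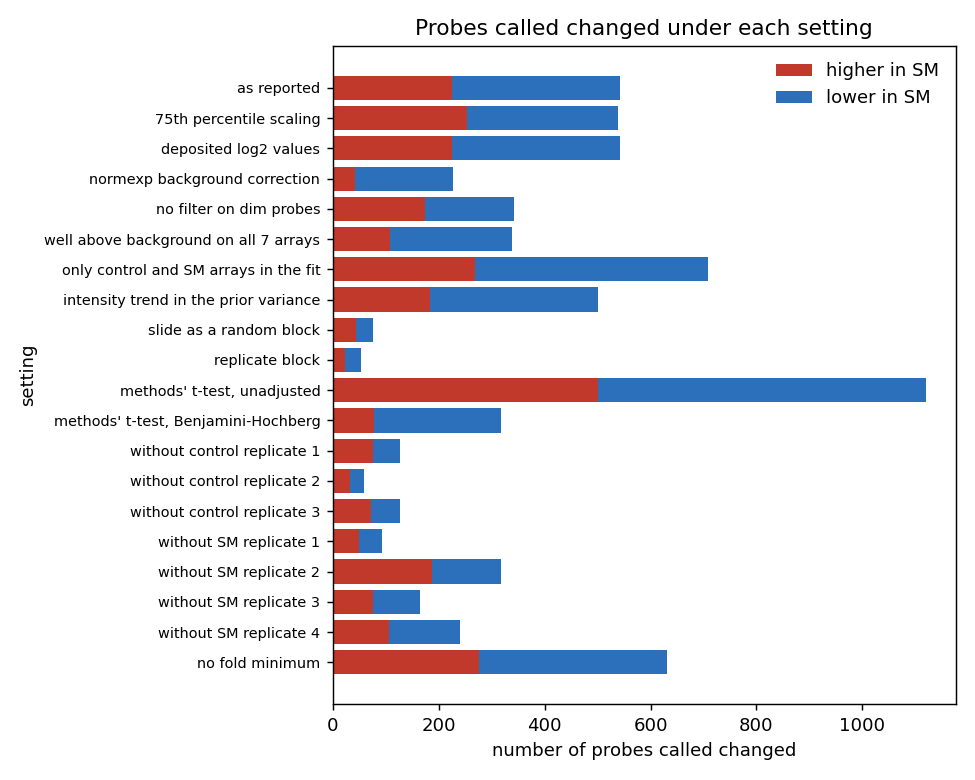
Bars give the number of probes called higher (red) and lower (blue) in SM under each setting of the processing. The count runs from 53 with the replicate block to 1120 with the methods' t-test before adjustment.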

How the data were processed

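Liver RNA was read on one-colour Agilent arrays, 1 array per rat. Per the file headers, the authors scanned the arrays and took each spot's intensity with local background subtracted from Feature Extraction (version 10.7 in the submitters' processing notes). The authors also deposited log2 values, quantile normalized in GeneSpring, with a median of 5.176 in every column. Each deposited column correlated best with its own array.

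Here, after removal of control spots and of 0 to 4 non-uniform spots per array, intensities were quantile normalized across the 10 arrays and averaged per probe as log2 values. Tested were 22850 of 41012 probes, those well above background on every control array or on every SM array, with R 4.3.3 and limma 3.58.1 (lmFit and eBayes, 3 groups). The median over tested probes of the standard error was 0.149 on the log2 scale, and the number of arrays limits precision. Accessions matched 17503 probes to genes of the RefSeq table of GRCr8, and 23509 stayed unnamed, 394 of the 543 called probes among them. A gene's value is that of its brightest tested probe. The text names up to 12 bright rises and falls by size (10 rises qualified), 4 other rises and falls, up to 4 called or 2 bright members of each of 50 lists, Actb and Gapdh. Isg15, Cxcl10, Cd74, Col1a1, Col1a2, Ephx2, Atm, Bdh1, Hspa8, Cct6a, Ccnb2, Ccna2, Cdkn1a, Nr1d2, Cry1 and the promoter genes were chosen after their values were seen. Members and lists were chosen with earlier results of these data known. Some list members are counted but not reported here by name. The fit was tested on simulated data. Alternatives covered scaling, background correction, the dim filter, the arrays fitted, the variance model and slide or replicate as a block. They also covered the fold minimum, the methods' t-test (Student) and each array left out. Normexp background correction took the median signal, as the mean signal was not used here, with an offset of 50.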

Additional observations from a re-analysis of the deposited data

Results flagged for a closer look

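Among the 4 SM arrays, 1 array lay far from the others in 7 of 145 items examined, and chance flags about 1 in 20. Snrpa was at 8.95 on the log2 scale in SM replicate 4, apart from the other SM arrays. Shank1 was at 7.13 on the log2 scale in SM replicate 2, apart from the other SM arrays. Kynu was at 15.06 on the log2 scale in SM replicate 2, apart from the other SM arrays. Fcrla was at 9.06 on the log2 scale in SM replicate 4, apart from the other SM arrays. Ambp was at 18.72 on the log2 scale in SM replicate 3, apart from the other SM arrays. Rps23 was at 17.22 on the log2 scale in SM replicate 4, apart from the other SM arrays. Gapdh was at 15.94 on the log2 scale in SM replicate 4, apart from the other SM arrays. The control group of 3 arrays was not examined in this way.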

How the results depend on the processing

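The count of 543 called probes (224 higher, 319 lower) was 539 (253 higher, 286 lower) under 75th percentile scaling and 542 (225 higher, 317 lower) with the deposited log2 values. It was 227 (41 higher, 186 lower) under normexp, 341 (174 higher, 167 lower) with no filter on dim probes, 338 (107 higher, 231 lower) for probes well above background on all 7 arrays, 708 (269 higher, 439 lower) with only the 7 arrays fitted, 500 (183 higher, 317 lower) with an intensity trend, 631 (275 higher, 356 lower) with no fold minimum and 76 (43 higher, 33 lower) with the slide as a random block. The methods' t-test (Student) called 1120 (500 higher, 620 lower) at its unadjusted threshold and 318 (77 higher, 241 lower) after Benjamini-Hochberg adjustment. Leaving out 1 array gave 59 to 318 called, 33 to 187 higher and 26 to 133 lower. The cause was not tested. Signal over background limits the dim probes.

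Control and SM rats share replicate numbers but are separate animals, and deviations of same-numbered arrays correlated at 0.144, 0.0568 and -0.116, so the numbers were not taken as pairs. With the replicate block, in which SM replicate 4, alone in its number, has no weight, 53 (22 higher, 31 lower) probes were called.

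No called gene named in the report changed sign in its reported probe. Genes whose brightest probe was not called and lay near 0 did, and 1 of them, Cct6a, had another probe called lower (-1.10). Under 75th percentile scaling, Apoc3 was at 0.028, Pc was at 0.097, P4hb was at 0.048, Aifm1 was at 0.031, Irf3 was at 0.1, RT1-CE12 was at 0.036, Ttr was at 0.018, Ndufb8 was at 0.131 and Psma4 was at 0.131. With the deposited log2 values, Cyp2c13 was at -0.027 and Kdr was at -0.012. Under normexp background correction, Cyp2c13 was at -0.047, Apoc3 was at 0.006, Pc was at 0.002, Irf3 was at 0.07, Cd6 was at 0.017 and Psma4 was at 0.028. With the slide as a random block, Cyp2c13 was at -0.008, Scd was at -0.184, Pc was at 0.007, RT1-CE12 was at 0.054 and Psma4 was at 0.005. With the replicate block, Cyp2c13 was at -0.035, Slco1b2 was at 0.016, Scd was at -0.069, Ndufb8 was at 0.022 and Actb was at -0.021. As the mean over all tested probes of the gene, Bhmt was at 0.013, Apoc3 was at 0.012, Nadk2 was at 0.009 and Cct6a was at -0.538. Leaving out 1 array, values ran as follows: Actb from -0.132 to 0.166, Apex1 from -0.017 to 0.09, Arhgdib from -0.144 to 0.04, Cct6a from -0.08 to 0.161, Cd3d from -0.231 to 0.134, Cd6 from -0.178 to 0.178, Cdkn1a from -0.356 to 0.131, Cyp2c13 from -0.053 to 0.066, Dnase1l3 from -0.083 to 0.007, Epcam from -0.076 to 0.281, F2 from -0.015 to 0.091, Fbp1 from -0.018 to 0.06, Gadd45g from -0.46 to 0.196, Hspd1 from -0.013 to 0.082, Irf3 from -0.055 to 0.054, Kdr from -0.036 to 0.024, Ndufb8 from -0.119 to 0.04, Pc from -0.135 to 0.057, Psma4 from -0.041 to 0.011, RT1-CE12 from -0.227 to 0.095, Rxrg from -0.01 to 0.173, Scd from -0.069 to 0.324, Slco1b2 from -0.235 to 0.016 and Ttr from -0.197 to 0.06. The cause was not tested.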
